A study of Homo sapiens with 9 samples.

Results

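The cobalt chloride arm of this series compared 3 libraries of undifferentiated Caco-2 (uCaco-2) cells exposed to CoCl2 with 3 libraries of control cells, 6 of the 9 libraries in all. The members are the genes that could be tested between these libraries, 15944 of the 60591 symbols in the deposited table, and the account dwells on the 15876 of them that lie outside a list of 71 canonical hypoxia genes (68 tested). Caco-2 is a human colon adenocarcinoma line, so each library is a culture of 1 established line and not of normal epithelium, and the cells were used below confluence, while they still divide. Control cells had fresh medium, CoCl2 cells had medium with 300 µM CoCl2, and the OD cells, used here only as a second reference, had medium with 5 µM of an oxyquinoline derivative (OD). Every medium, control included, also carried 0.5% DMSO, and RNA was taken after 24 h from 3 biological replicates per group. The libraries were poly(A)-selected and stranded, and each value starts as the number of reads counted on a gene.

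Cobalt(II) takes the place of iron in prolyl hydroxylases, so that HIF is no longer marked for degradation, which is why the salt serves as a chemical mimic of hypoxia. OD is described as blocking the active site of the same enzymes directly. Cobalt is also a reactive metal ion, and several stress systems are known for answering metals. HSF1 drives the chaperones of the heat-shock response when unfolded proteins accumulate. NRF2, held back by KEAP1 until its cysteines are modified, drives glutathione, thioredoxin and quinone-reducing enzymes. MTF1 senses free zinc and drives the metallothioneins and the zinc exporter SLC30A1, and ATF4 drives amino acid and redox genes when translation initiation is curbed.

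Control libraries had 15998136 to 18298190 counts and CoCl2 libraries 16286502 to 24209427, and no 2 replicates looked like 1 library counted again, since the chi-square between their counts was 2.1 to 3.32 times its degrees of freedom. Of 8 colon epithelium markers, all were detected in every library, 2 were lower with CoCl2 (VIL1 and KRT20) and none was higher. Markers of other cell types were mixed, with at most 4 counts in any of the 6 libraries for the fibroblast genes COL1A2, DCN and THY1, the leukocyte genes PTPRC, CD3E and CD68 and the endothelial genes KDR and TEK, while COL1A1 (135 to 308 counts), COL3A1 (85 to 150), PECAM1 (20 to 49), PDGFRA, LYZ and CD14 were counted in every library. Of all 22 markers of these 3 cell types 11 passed the filter on low counts, of which VWF was higher (0.294 to 0.449 up to 0.996 to 1.24 CPM) and PDGFRB lower (4.22 to 5.27 down to 0.619 to 1.18 CPM), and any part of other cells in the results was not tested. Fewer transcripts per cell and fewer cells of a kind cannot be told apart in such bulk libraries. The 50 most abundant genes took 21.7% to 22.3% of all counts with CoCl2 and 15.7% to 16.1% in controls. TMM factors, which correct for such a shift in composition, ranged from 0.770 to 0.795 with CoCl2 and from 1.11 to 1.12 in the control libraries. All levels below are in CPM, counts scaled to a common effective library size with the TMM factors, and because CPM is not divided by transcript length it is compared only between libraries, not between genes.

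A gene was called when edgeR's quasi-likelihood test gave a Benjamini-Hochberg adjusted p under 0.05 and the log2 fold change was above 1 in size. By this rule 6891 genes were called, 3167 of them upregulated (19.9% of the genes tested) and 3724 downregulated (23.4%), and these shares are the background against which each list below is read. Scaling by library size alone changed the split to 1833 higher and 5839 lower, so that 23.9% of called genes were higher instead of 46.0%, and the median of all genes moved from -0.05 to -0.55 on the log2 scale. For this reason the median of a list is given relative to the median of all tested genes. Library-size scaling lowers every value nearly alike, so it could hardly move this quantity, which shifted by at most 0.01 in the lists examined. That small shift is no test of the medians, and 19 of 53 changed sign in some alternative. In 6822 of the called genes (99.0%) the 3 CoCl2 libraries did not overlap the 3 control libraries. The rule for a call favours such genes and the share over all tested genes is not given, so this count is not support for the calls. Many uncalled genes separated too, as in the cytosolic ribosomal proteins, where 81 of 84 did not overlap while 4 rose and 2 fell. The hypoxia list supplied 42 rises and 3 falls, or 28 and 7 with library size alone, with a median 1.34 above that of all genes. Of called genes 99.3% lay outside it, but 15876 of the 15944 genes tested did so too. That share follows from the size of the list and is not a result. Between CoCl2 and OD, 2790 genes were higher with CoCl2 (17.5%) and 3790 lower (23.8%).

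Among the genes that rose most were chaperones, growth-arrest genes and an immediate-early gene. HSPA1A, an inducible cytosolic HSP70 chaperone (chr6:31815543-31817946 in GRCh38, plus strand), had 33.7, 29.8 and 33.8 CPM in the control libraries and 5216, 4917 and 4730 CPM with CoCl2, a log2 fold change of 7.26 ± 0.06 (SE, n = 3 per group) or 153-fold, with an adjusted p of 1.14e-71 by edgeR. Its neighbour HSPA1B encodes an almost identical protein and rose from 16.0, 16.4 and 18.1 to 1556, 1582 and 1458 CPM, and since the 2 genes share most of their sequence the division of reads between them is uncertain. ZFAND2A, a zinc-finger protein known to be induced by arsenite and to bind the proteasome, went from 15.4, 15.1 and 14.3 to 1246, 1194 and 1080 CPM. None of these 3 genes was called with OD, where HSPA1A had a mean of 20.7 CPM, HSPA1B 12.1 CPM and ZFAND2A 23.3 CPM, and the log2 differences between CoCl2 and OD were 7.90, 6.98 and 5.65.

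**Figure D1:**
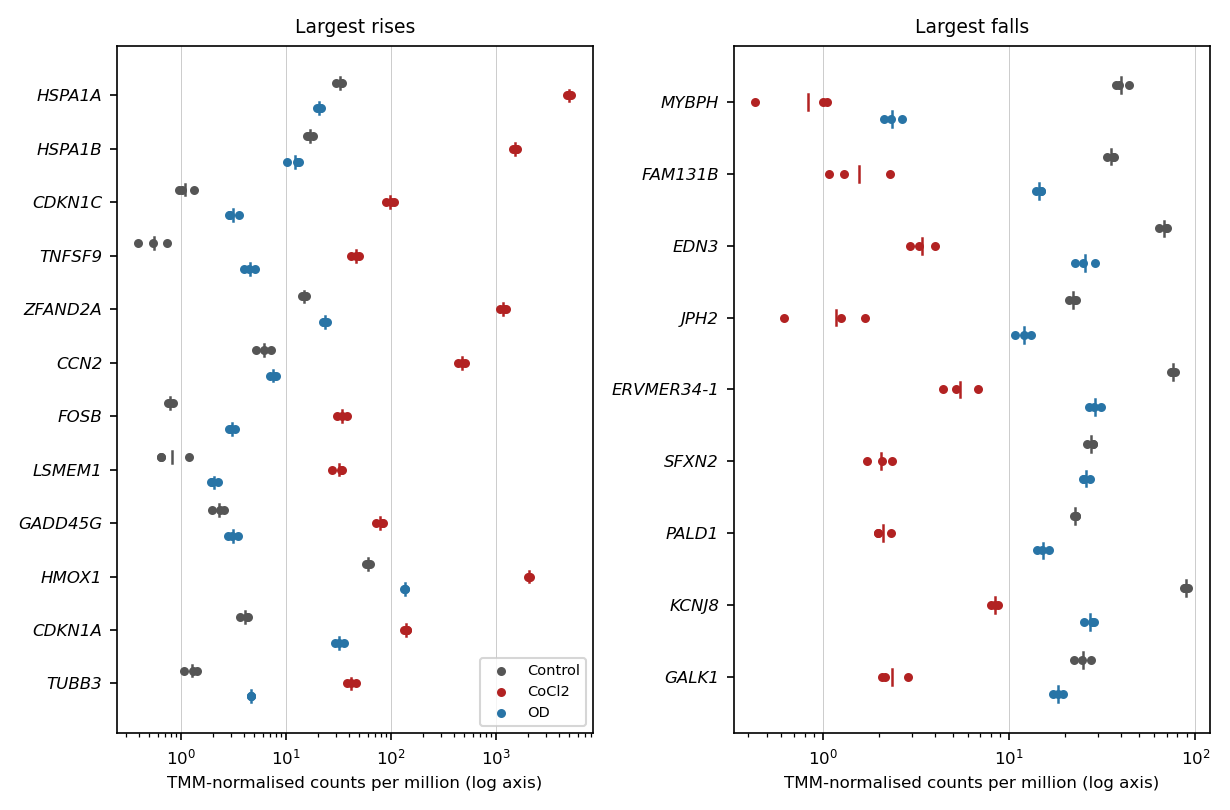
TMM-normalised CPM (log axis) of the 12 genes with the largest rises and 9 of those with the largest falls outside the hypoxia list, among genes of at least 10 CPM on average with more than 3 counts in each of the 6 libraries. Each point is 1 library, the short bar is the mean of 3, and colours mark control, CoCl2 and OD. HSPA1A sits between 4730 and 5216 CPM with CoCl2 and between 29.8 and 33.8 CPM in control cells. In each of the 21 genes the CoCl2 points lie apart from the control points, which was a condition for naming them.

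A pair of inhibitors of cyclin-dependent kinases were among the 12 largest rises. CDKN1C, which encodes p57, had 1.02, 1.32 and 0.954 CPM in control cells and 100, 106 and 88.9 CPM with CoCl2 (log2 fold change 6.46 ± 0.11). CDKN1A, which encodes p21, rose from 3.61, 4.27 and 4.38 to 141, 134 and 142 CPM, while OD cells had 32.2 CPM on average. GADD45G, a growth-arrest gene, reached 72.5 to 83.3 CPM from 1.96 to 2.58 CPM. CCN2, the matricellular connective tissue growth factor, rose from 6.19, 7.16 and 5.16 to 505, 480 and 431 CPM, and TNFSF9, the ligand of the T cell costimulator 4-1BB, from 0.392 to 0.729 CPM up to 41.7 to 49.7 CPM. FOSB, an AP-1 subunit, rose by 5.42, LSMEM1 by 5.28 and the neuronal tubulin TUBB3 by 5.04 on the log2 scale. HMOX1, the heme oxygenase that releases iron, carbon monoxide and biliverdin, had 60.4, 57.2 and 62.4 CPM in control cells and 2044, 1999 and 2101 CPM with CoCl2, a 34.2-fold rise. These 12 genes were named only if their CoCl2 libraries did not overlap the control libraries, so that separation is not a result. For each of them the difference from OD also passed the test, with the smallest log2 difference, 2.11, at CDKN1A.

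The largest falls included genes of muscle-type structure, signalling and metabolism. MYBPH, a myosin-binding protein, fell from 44.1, 38.7 and 37.5 CPM to 0.436, 1.01 and 1.05 CPM (log2 fold change -5.58 ± 0.14). The vasoactive peptide gene EDN3 fell from 69.8, 70.3 and 64.1 to 3.3, 4.02 and 2.94 CPM, and the endogenous retroviral envelope gene ERVMER34-1 from 77.4, 74.0 and 74.8 to 4.42, 5.19 and 6.82 CPM. Metabolic genes in this group were GALK1, the galactokinase of galactose breakdown, and SFXN2, a mitochondrial carrier protein, with log2 fold changes of -3.38 and -3.75. SFXN2 had a mean of 25.8 CPM with OD, just below the range of its control libraries (26.1 to 28.2 CPM). Further falls named by the rule were FAM131B at -4.43, the calcium-store tether JPH2 at -4.16, PALD1 at -3.44 and the potassium channel KCNJ8 at -3.40.

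A further set of called genes was at or near 0 in 1 of the groups, 175 upregulated genes with at most 3 counts in every control library and 227 downregulated genes with at most 3 counts in every CoCl2 library. HSPA6, a strictly inducible HSP70 gene, had 1 count in each control library and 3520, 2673 and 4025 counts with CoCl2, or 219, 207 and 211 CPM. Set against 3 counts per control library, this was at least 1260-fold higher. The eosinophil chemokine CCL26 was at least 117-fold higher and reached 16.9 to 22.6 CPM. The remaining 3 of the 5 named here for their level were long noncoding or unmatched transcripts, LINC02757 (at least 372-fold), AL606500.1 (at least 80.5-fold) and CDKN2A-DT (at least 60.2-fold), the last with no count in any control or OD library. In the other direction the phospholipase PLCB2 was at least 16.8-fold lower, AC010251.1 at least 10.7-fold, LINC02562 at least 7.81-fold, C5orf66-AS1 at least 7.45-fold and GUCY1B2 at least 7.29-fold.

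Measured by the counts they took up rather than by fold, chaperones and ferritin led the gains. HSPA8, the constitutive HSP70 that folds new proteins and uncoats clathrin, went from 4085, 3966 and 4136 CPM to 25350, 22890 and 22130 CPM. HSP90AA1, the inducible cytosolic HSP90, went from 2065, 2086 and 2119 to 10440, 9751 and 9428 CPM, and its constitutive partner HSP90AB1 from 2751 to 2892 CPM up to 5805 to 6254 CPM. FTL, the light chain of ferritin, rose from 1535, 1387 and 1494 to 18790, 16880 and 17020 CPM (log2 fold change 3.58 ± 0.05). Together HSPA8, HSP90AA1, HSPA1A and HSPA1B took 0.680% to 0.703% of counts in control libraries, 2.97% to 3.27% with CoCl2 and 0.386% to 0.404% with OD. The ferritin pair FTL and FTH1 took 0.165% to 0.180%, 1.36% to 1.47% and 0.170% to 0.172% in the same order.

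**Figure D2:**
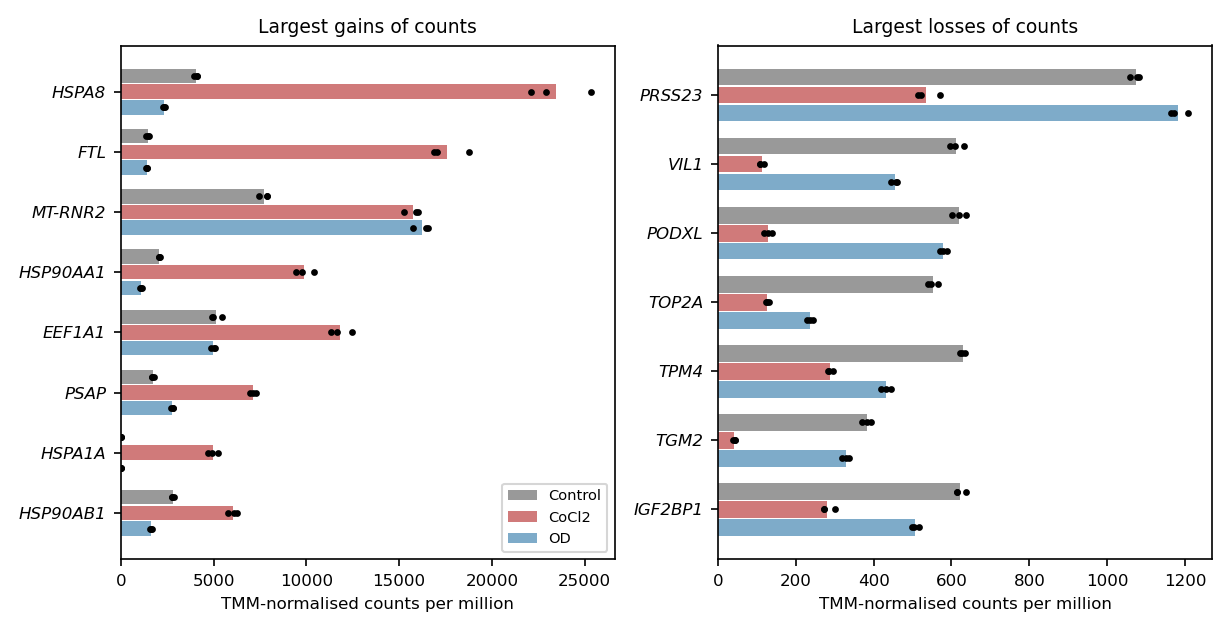
TMM-normalised CPM of the 8 called genes that gained most counts and 7 of those that lost most outside the hypoxia list. Bars start at 0 and show the mean of 3 libraries per group, and black points are the libraries. HSPA8 stands at 22130 to 25350 CPM and FTL at 16880 to 18790 CPM with CoCl2, while the OD means are 1395 CPM for FTL and 16250 CPM for MT-RNR2, where the CoCl2 libraries have 15250 to 16000 CPM.

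The other genes in this group were PSAP, the precursor of the lysosomal saposins (1681 to 1780 CPM in control cells and 6941 to 7267 CPM with CoCl2), EEF1A1, the elongation factor that brings aminoacyl-tRNA to the ribosome (4927 to 5465 and 11340 to 12450 CPM), and MT-RNR2, the large ribosomal RNA of mitochondria. EEF1A1 has many processed pseudogenes, so its share of ambiguous reads is uncertain, and MT-RNR2 in poly(A)-selected libraries reflects only its adenylated fraction. With library size alone the log2 fold changes of HSP90AB1, EEF1A1 and MT-RNR2 were 0.60, 0.70 and 0.52 and no longer passed. Among the genes that lost most counts were PRSS23, a secreted serine protease that sat at the threshold with -1.0, VIL1, PODXL, TOP2A, TPM4, TGM2 and IGF2BP1. Of these, TGM2, a protein-crosslinking transglutaminase, fell furthest, from 371, 384 and 393 to 37.9, 43.6 and 43.7 CPM. TOP2A, the topoisomerase of dividing cells, fell from 548, 566 and 541 to 123, 132 and 125 CPM and was also lower with CoCl2 than with OD (log2 difference -0.90), although that difference was under the threshold of 1.

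The chaperone families did not move as 1 block. Among the HSP70 and HSP110 chaperones 10 of 12 rose and none fell, or 7 and 0 with library size alone. Their median was 2.15 above all genes. HSPH1, the HSP110 exchange factor, rose from 348, 385 and 384 to 2429, 2487 and 2229 CPM, whereas the mitochondrial HSP70 HSPA9 stood at the threshold with a log2 fold change of 0.99, not called here but called with RLE factors (1.04), with DESeq2 on 9 libraries, without CoCl2 replicate 2 (1.01) and without Control replicate 1. In the HSP90 list 10 of 22 rose and 2 fell, a count that became 2 and 2 with library size alone. BAG3, the co-chaperone that hands clients of HSP70 to autophagy, rose most (47.6, 45.9 and 50.2 to 640, 593 and 599 CPM), and the mitochondrial HSP90 TRAP1 fell (159 to 168 down to 47.0 to 51.4 CPM). Of 38 DNAJ co-chaperones, the J-domain partners of HSP70, 13 rose and 5 fell, or 11 and 11 with library size alone. DNAJB1 rose from 132, 121 and 123 to 1421, 1307 and 1253 CPM and DNAJA1 by 2.06 on the log2 scale, while DNAJC30, a mitochondrial member, fell by 2.31. Of the 4 small heat-shock protein genes tested of 6 listed, 3 rose, with the lens and muscle chaperone CRYAB at a log2 fold change of 5.03. Chaperonins and prefoldin gave 1 rise in 16, PFDN1, and the mitochondrial pair HSPD1 and HSPE1 had log2 fold changes of -0.60 and -0.99, neither past the threshold, though both passed with library size alone (-1.10 and -1.50).

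The whole of the chaperone lists took 2.54% to 2.58% of counts in control cells, 5.35% to 5.69% with CoCl2 and 1.65% to 1.70% with OD, so that the 3 groups did not overlap. Direct tests against OD put 11 of the 12 HSP70 and HSP110 genes and 14 of the 22 HSP90 genes higher with CoCl2. The mRNA of the factor HSF1 itself had 41.8 to 42.7 CPM in control cells and 66.3 to 72.1 CPM with CoCl2, a log2 fold change of 0.71 that was not called. TCP1, the first subunit of the cytosolic chaperonin, had a log2 fold change of 0.95 and was likewise not called.

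The RefSeq promoters of 3 raised chaperone genes show the binding sequence of HSF1, the heat-shock element, which was searched as 3 alternating units of GAA and TTC with 2 bases between neighbours, on both strands. They are shown because this motif is rare, present in 0.607% of the 27195 genes with a promoter in the RefSeq table. It was found in 18.2% of the 33 raised chaperone genes with a promoter and in 4.26% of the 47 chaperone genes that were not raised, counts of 6 and 2 that carry no test. Over all upregulated genes with a promoter the share was 0.662%, against 0.243% of downregulated genes and 0.44% of tested genes. Each window runs from 250 bases before to 50 after the start site in GRCh38.p14, 5′ to 3′ on the strand of the gene, with the element in capitals.
HSPA6 (chr1:161524290-161524589, plus strand): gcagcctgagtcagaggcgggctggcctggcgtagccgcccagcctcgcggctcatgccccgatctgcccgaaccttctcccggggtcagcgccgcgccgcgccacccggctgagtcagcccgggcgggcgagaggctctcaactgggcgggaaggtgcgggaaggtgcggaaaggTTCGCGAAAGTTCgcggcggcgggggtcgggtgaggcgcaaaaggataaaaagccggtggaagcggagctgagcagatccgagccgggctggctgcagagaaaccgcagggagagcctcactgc
HSPA8 (chr11:123062087-123062386, minus strand): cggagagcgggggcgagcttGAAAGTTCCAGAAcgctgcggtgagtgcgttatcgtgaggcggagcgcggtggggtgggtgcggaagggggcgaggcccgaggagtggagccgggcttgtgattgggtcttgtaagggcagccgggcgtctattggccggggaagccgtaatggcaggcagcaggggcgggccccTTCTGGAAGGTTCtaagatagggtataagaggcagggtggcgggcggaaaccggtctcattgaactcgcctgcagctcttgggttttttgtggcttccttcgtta
HSP90AA1 (chr14:102086995-102087294, minus strand): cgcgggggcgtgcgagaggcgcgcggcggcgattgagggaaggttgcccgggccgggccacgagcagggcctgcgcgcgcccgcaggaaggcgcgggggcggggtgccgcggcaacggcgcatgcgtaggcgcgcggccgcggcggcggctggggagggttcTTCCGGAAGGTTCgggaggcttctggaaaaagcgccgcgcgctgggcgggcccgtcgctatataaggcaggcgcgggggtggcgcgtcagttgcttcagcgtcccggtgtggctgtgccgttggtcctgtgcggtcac
The element began 74 bases before the start of HSPA6, 230 and 55 before that of HSPA8, and 88 before 1 of the 2 listed starts of HSP90AA1. The windows of HSPA1A, HSPA1B, DNAJB1, HSPH1 and BAG3 held no match in this strict form, which says only that these letters are not in the 300 bases searched.

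Genes that clear proteins rose beside the chaperones. Of 32 proteasome subunits, 26 were upregulated and none downregulated, with a median 1.47 above all genes and a narrow spread from 0.51 for PSMD4 to 2.36 for PSMC4. PSMC4, an ATPase of the regulatory particle, went from 213, 206 and 224 to 1089, 1061 and 1149 CPM. PSMD2, the scaffold of the same particle, went from 408, 393 and 394 to 2016, 1898 and 1957 CPM, and the deubiquitinase PSMD14 from 158, 161 and 150 to 685, 674 and 651 CPM. Against OD, where the list had a median log2 fold change of -0.34, 28 of the 32 were higher with CoCl2. With library size alone 11 subunits passed and none was lower.

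Ubiquitin and autophagy genes gave 14 rises and no fall among 26, or 9 rises and 1 fall with library size alone. UBB, a polyubiquitin gene, rose from 298, 267 and 262 to 646, 610 and 644 CPM, but with library size alone its log2 fold change was 0.70 and it was not called. SQSTM1, the p62 receptor that carries ubiquitylated cargo into autophagosomes, rose from 171, 165 and 176 to 1550, 1474 and 1526 CPM. Among the ubiquitin-like proteins of the autophagosome membrane, GABARAPL1 had 86.0 to 88.0 CPM in control cells and 1216 to 1298 CPM with CoCl2, and MAP1LC3B 76.3 to 80.0 and 845 to 917 CPM. Lysosomal enzymes and V-ATPase subunits had 20 rises and 2 falls in 43, or 10 and 4 with library size alone. GLA, the alpha-galactosidase of the lysosome, rose from 56.5, 57.1 and 61.3 to 608, 593 and 594 CPM, NPC1, the cholesterol exporter of the lysosome, rose by 2.14 and the protease CTSD by 1.76 on the log2 scale, while NAGLU, a heparan sulfate-degrading enzyme, fell by 2.7.

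**Figure D3:**
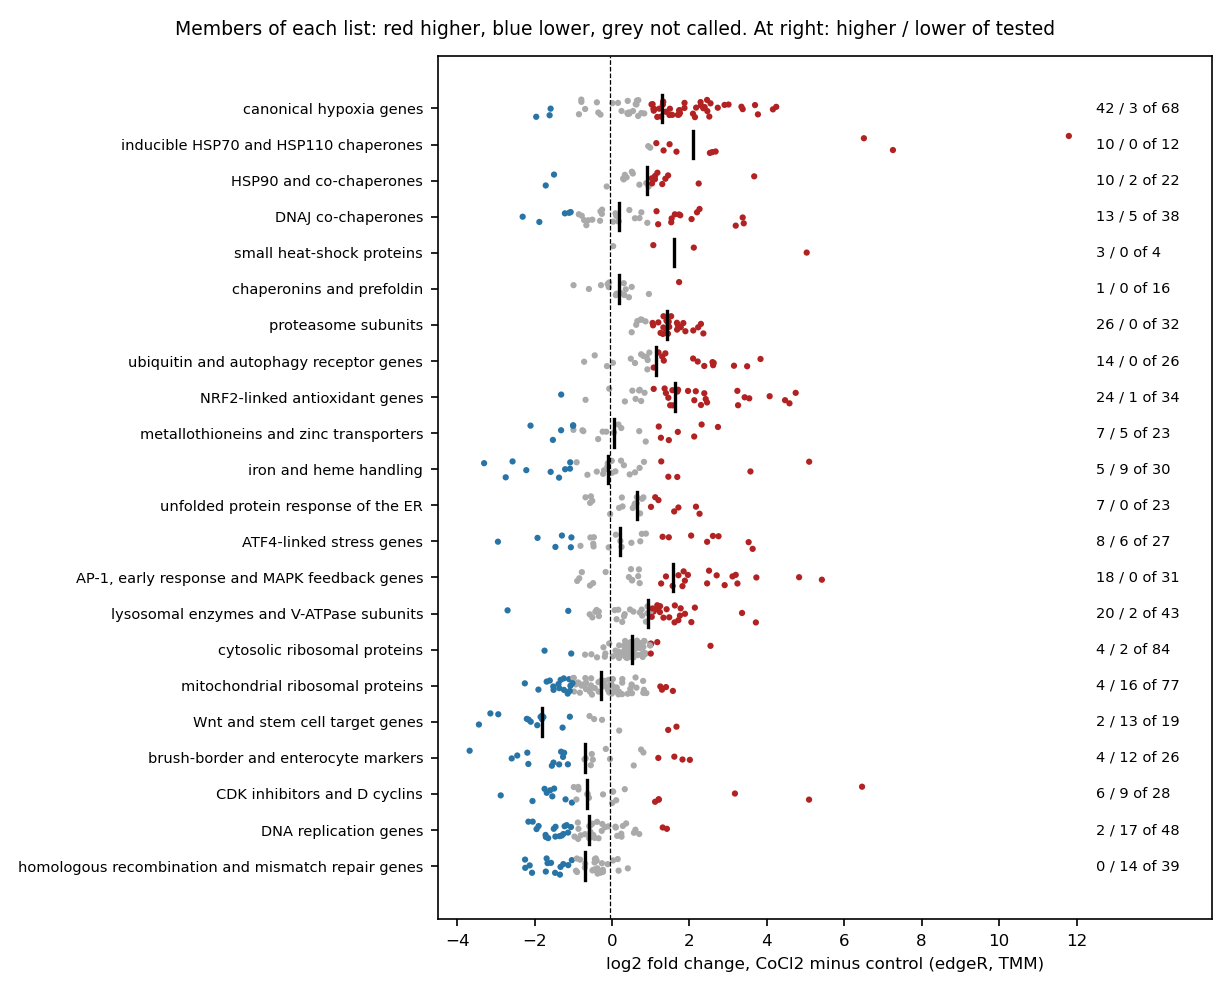
Log2 fold change, CoCl2 minus control, of every tested member of 22 lists. Each point is 1 gene, red when called higher, blue when called lower and grey when not called, the black bar is the median of the list, the dashed line is the median of all tested genes (-0.05), and the numbers at right give members higher and lower of those tested. HSP70 and HSP110 chaperones (10 of 12 higher), proteasome subunits (26 of 32) and NRF2-linked genes (24 of 34) lie to the right, and Wnt and stem cell target genes (13 of 19 lower) lie to the left.

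Antioxidant genes linked to NRF2 gave 24 rises and 1 fall in 34, with a median 1.68 above all genes. With library size alone 19 rose and 2 fell. GCLM, the modifier subunit of the enzyme that limits glutathione synthesis, rose from 19.2, 20.6 and 20.3 to 237, 235 and 230 CPM, and TXNRD1, the cytosolic thioredoxin reductase, from 199, 191 and 189 to 1904, 1854 and 1776 CPM. NQO1, the quinone reductase, rose from 160, 151 and 152 to 701, 639 and 677 CPM, and SRXN1, which repairs overoxidised peroxiredoxins, by 3.24 on the log2 scale. The aldo-keto reductases AKR1C1 and AKR1C2 had log2 fold changes of 4.47 and 4.58, but these paralogues are nearly identical and the division of their reads is uncertain. CBR3, a carbonyl reductase that was at or below 3 counts in the control libraries, was at least 11.8-fold higher, and the bile conjugate exporter ABCC3 was the gene that fell (-1.31). The mRNAs of NFE2L2, which encodes NRF2, and of KEAP1 rose too, by 1.57 and 1.5, although KEAP1 was not called with library size alone. In OD cells the median log2 fold change of the list was 0.16, and 24 of the 34 genes were higher with CoCl2 than with OD.

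The antioxidant response element to which NRF2 binds, searched as TGACNNNGC on both strands, was in 30.8% of the 26 promoters of this list. It was in 19.3% of the 10907 promoters of tested genes and in 29.4% of the 187 promoters of genes with a log2 fold change above 3. The element was not particular to NRF2-linked genes. It was in 10 of the 20 promoters of metallothionein and zinc transporter genes and in 38.1% of those of ATF4-linked genes. Shares were lower for proteasome subunits (29.6%), the hypoxia list (24.1%) and the chaperone lists (17.5%). Since the element is present in 16.1% of all RefSeq promoters, it is shown for the 2 genes whose values lead the paragraph above, with the element in capitals.
TXNRD1 (chr12:104215529-104215828, plus strand): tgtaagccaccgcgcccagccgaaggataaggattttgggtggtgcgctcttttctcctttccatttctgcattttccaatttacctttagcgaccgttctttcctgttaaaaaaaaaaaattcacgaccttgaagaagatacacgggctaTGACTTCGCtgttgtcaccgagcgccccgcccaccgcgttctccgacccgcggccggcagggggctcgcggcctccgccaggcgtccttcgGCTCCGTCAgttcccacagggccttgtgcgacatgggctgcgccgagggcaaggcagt
GCLM (chr1:93909381-93909680, minus strand): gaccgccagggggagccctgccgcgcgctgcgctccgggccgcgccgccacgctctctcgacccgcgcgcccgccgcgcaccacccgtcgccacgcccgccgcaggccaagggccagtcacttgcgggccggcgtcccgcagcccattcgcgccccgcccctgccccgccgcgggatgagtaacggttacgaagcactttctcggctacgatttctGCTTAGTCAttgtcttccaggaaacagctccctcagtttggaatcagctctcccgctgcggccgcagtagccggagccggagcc
It began 99 and 8 bases before 1 of the 2 listed starts of TXNRD1 and 34 bases before that of GCLM. NQO1 and SRXN1 held no match in the same window.

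Genes of metal handling moved in both directions. For zinc, 7 of 23 genes rose and 5 fell, and the median was 0.10 above all genes. That median turned negative with 6 libraries (-0.02), DESeq2 (-0.13 on 9 libraries, -0.20 on 6) and no count filter (-0.14), and with library size alone 4 rose and 8 fell. The exporter SLC30A1 rose from 28.7, 34 and 29.7 to 135, 138 and 131 CPM, its regulator MTF1 from 14.2 to 16.4 up to 72.1 to 82.2 CPM, and the metallothioneins MT2A and MT1X from 1.28 to 1.57 up to 9.08 to 10.9 CPM and from 0.592 to 1.46 up to 2.61 to 3.20 CPM. The metallothioneins are short, similar genes and their levels stayed low, so they carry larger errors (SE 0.17 and 0.24). Among zinc transporters SLC30A2 fell by 2.1 on the log2 scale. For iron, 5 of 30 genes rose and 9 fell, or 3 and 11 with library size alone. The risers included the storage genes FTL and FTH1 (88.7 to 93.9 up to 280 to 313 CPM), HMOX1 and NCOA4, the receptor that delivers ferritin to autophagy (log2 fold change 1.46). The falls included the reductase STEAP3 (38.5 to 41.9 down to 3.48 to 4.56 CPM) and enzymes of heme synthesis, UROS at -2.75, PPOX at -2.57 and ALAD at -1.37, while ALAS1, which starts the pathway, rose by 1.27.

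The metal response element of MTF1, searched as TGCACNC and TGCGCNC on both strands, was in 65.0% of the 20 promoters of the zinc list and in 45.3% of promoters of tested genes. Nor was this element particular to the zinc list, with 61.5% for NRF2-linked genes and 53.4% for the hypoxia list. Lower shares were found for ATF4-linked genes (42.9%), proteasome subunits (37.0%) and the chaperone lists (33.8%). MT2A is shown because its window held 8 matches, in capitals, the outermost at 246 bases before and 30 after the start.
MT2A (chr16:56608334-56608633, plus strand): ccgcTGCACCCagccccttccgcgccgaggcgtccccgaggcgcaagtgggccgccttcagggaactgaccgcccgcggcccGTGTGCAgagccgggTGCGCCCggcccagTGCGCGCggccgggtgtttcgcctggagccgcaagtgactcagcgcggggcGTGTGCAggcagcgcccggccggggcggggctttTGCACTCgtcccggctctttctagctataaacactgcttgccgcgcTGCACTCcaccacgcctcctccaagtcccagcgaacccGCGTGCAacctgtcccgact
For comparison the short core of the hypoxia response element, ACGTG on either strand, was in 65.5% of the 58 promoters of the hypoxia list, in 32.3% of promoters of upregulated genes, in 29.4% of those of downregulated genes and in 32.0% of all tested ones.

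Stress of the endoplasmic reticulum and of translation showed a partial pattern. In the unfolded protein response list 7 of 23 rose and none fell, and with library size alone 4 rose and 4 fell. HSPA5, the HSP70 of the endoplasmic reticulum, rose from 859, 826 and 842 to 4090, 3797 and 3481 CPM and its partner DNAJB9 from 13.5 to 15.4 up to 63.7 to 75.8 CPM, whereas HSP90B1 and XBP1 had log2 fold changes of 0.58 and 0.64 and were not called. Among genes linked to ATF4, 8 of 27 rose and 6 fell, a balance that turned to 6 and 8 with library size alone. CTH, which makes cysteine from cystathionine, rose from 5.86, 4.71 and 5.05 to 64.7, 65.2 and 63.8 CPM, and CBS, the step before it, fell from 2.30 to 2.64 down to 0.155 to 0.436 CPM. PPP1R15A, the phosphatase subunit that restores translation, rose by 3.53 and DDIT3, the factor CHOP, by 1.47, the latter to 0.96 and below the threshold with library size alone. ATF4 itself had a log2 fold change of 0.88 and ASNS, the asparagine synthetase, 0.77, neither called. Compared with OD, 14 of the 27 were lower with CoCl2 and 5 higher, among them ASNS (log2 difference -1.33).

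Immediate-early genes and their feedback phosphatases were higher at 24 h. In the AP-1 and MAPK feedback list 18 of 31 rose and none fell, with a median 1.62 above all genes, or 16 and 4 with library size alone. FOS went from 4.25, 4.71 and 4.82 to 141, 137 and 117 CPM and JUN from 37.6 to 40.5 up to 121 to 136 CPM. DUSP1, a phosphatase of MAP kinases, rose from 20.8, 22.8 and 23.7 to 213, 201 and 202 CPM and the stress factor ATF3 from 21.9 to 23.3 up to 119 to 130 CPM. EGR1 and MYC had log2 fold changes of 0.72 and -0.78 and were not called. The CoCl2 level of ATF3 exceeded its OD mean of 83.6 CPM by a log2 difference of 0.56, whereas FOS and FOSB differed from OD by 3.27 and 3.49. In the EGF family the ligand HBEGF rose from 12.4 to 14.4 up to 88.2 to 98.9 CPM and the receptors EGFR and ERBB2 fell by 1.52 and 1.72. With OD the means of EGFR and ERBB2 were 175 and 142 CPM, above the control libraries (102 to 119 and 109 to 112 CPM).

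Regulators of the G1 phase and genes of DNA repair were among the cell-cycle genes that fell. Of 28 genes for cyclin-dependent kinases, their inhibitors, D and E cyclins and E2F factors, 6 rose and 9 fell, or 3 and 16 with library size alone. The D cyclins CCND1 and CCND2, partners of CDK4 and CDK6, fell from 272, 289 and 287 to 83.1, 84.7 and 86.0 CPM and from 25.9 to 31.8 down to 3.41 to 5.26 CPM. CDK4 fell by 2.05 and E2F1 by 1.69, and the p19 inhibitor CDKN2D rose by 3.18. In DNA replication 17 of 48 fell and 2 rose, with TYMS at -2.05, but MCM2 and PCNA had log2 fold changes of -0.25 and 0.14. In mitosis 9 of 58 fell and 3 rose, and the regulators CDK1 and CCNB1 had -0.84 and -0.67, uncalled here but called with library size alone (-1.35 and -1.17). The share of falls in DNA replication lay above the 23.4% of all genes, but the share in mitosis lay below it. By that count the mitosis list showed no loss beyond the background. These counts of falls became 28 and 22 with library size alone, so both depend on the scaling. Homologous recombination and mismatch repair genes gave no rise and 14 falls in 39, or 21 falls with library size alone. The falls were led by RMI2 at -2.25, PMS1 at -2.24 and XRCC2 at -2.13. BRCA1 fell from 69.4, 72.1 and 70.3 to 22.7, 24.4 and 24.1 CPM.

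Replication-dependent histone genes, whose mRNAs normally end in a stem-loop without a poly(A) tail, were called higher in each of the 24 members tested. Only these 24 of 66 passed the filter on low counts, and since a gene could pass on its CoCl2 libraries alone, that count is not support. H2BC8 had 0.592, 0.539 and 1.23 CPM in control cells and 23.3, 19.7 and 18.6 CPM with CoCl2, and H2BC21 0.592, 0.539 and 1.12 and 15.2, 14.2 and 13.3 CPM. The testis-type linker histone H1-6 had no count in any control or OD library and 45, 37 and 54 counts with CoCl2, at least 16.8-fold higher than 3 counts per library. The median log2 fold change of the same 24 genes was 2.64 with CoCl2 and -2.0 with OD. Both medians carry the same selection, so they do not measure the change of the whole list. The OD value also rests on genes with few counts in the control and OD libraries. In poly(A)-selected libraries more histone RNA and more polyadenylated histone RNA cannot be told apart.

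Intestinal and stem cell programmes were lower in part. In the list of brush-border and enterocyte markers 12 of 26 fell and 4 rose, with a median 0.64 below all genes. VIL1, the villin of microvilli, fell from 632.5, 609 and 596 to 109, 108 and 119 CPM, FABP1, the fatty acid-binding protein of enterocytes, from 29.3 to 34.1 down to 4.80 to 5.30 CPM, and the glucose transporter SLC2A2 fell by 3.68 on the log2 scale. EPS8, an actin regulator of microvilli, rose by 2.01, and the disaccharidase SI had 0.787 to 1.55 CPM in the 6 libraries (log2 fold change -0.05 ± 0.30), too low for a small change to show. Against OD 13 of the 26 were lower with CoCl2 and none was higher. The factors that define intestinal identity, CDX2 and HNF4A, had log2 fold changes of 0.18 and 0.41 and were not called.

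Among the 23 tested intestinal transcription factors, 6 rose and 3 fell, or 5 and 7 with library size alone. NR1H4, the bile acid receptor FXR, had no count in any control library and 96, 91 and 119 counts with CoCl2 (5.97 to 7.04 CPM), at least 38.1-fold higher. KLF4, a factor of non-dividing surface cells, rose from 3.55 to 3.97 up to 24.2 to 24.8 CPM and KLF5, its counterpart in crypts, from 88.3 to 99.2 up to 392 to 418 CPM, while GATA4 was at least 4.70-fold lower. Wnt and stem cell target genes had 13 falls and 2 rises in 19 and a median 1.76 below all genes. The receptor EPHB2 fell from 42.7, 36.6 and 39.3 to 4.42, 4.26 and 4.67 CPM, the feedback inhibitor NKD1 from 74.8, 70.3 and 62.5 to 15.6, 14.0 and 15.4 CPM and the crypt factor ASCL2 by 2.1. The widely used Wnt targets AXIN2 and LGR5 had log2 fold changes of 0.19 and -0.26, both uncalled, and EPHB3 and CD44 rose by 1.67 and 1.45.

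Junction genes gave 7 rises and 3 falls in 26, or 2 and 4 with library size alone. CLDN4, a sealing claudin, rose from 184, 180 and 192 to 1369, 1350 and 1314 CPM, and CLDN2, a pore-forming claudin, fell from 12.4, 11.2 and 11.6 to 1.62, 2.01 and 1.47 CPM. CDH1, the E-cadherin of adherens junctions, had a log2 fold change of 0.28 and the keratins KRT8 and KRT18 had 0.35 and 0.26, and none of the 3 was called. Of 8 mucins and trefoil factors tested of 14 listed, 2 rose and 3 fell. The falls were MUC1, MUC3A at -1.75 and MUC5AC at -1.47. MUC1 had 6, 7 and 9 counts in the control libraries and 0, 0 and 2 with CoCl2, so it was at least 1.68-fold lower. The secreted peptide TFF1 rose by 1.97 on the log2 scale and the membrane mucin MUC13 rose from 7.70 to 8.64 up to 55.3 to 65.8 CPM, while TFF3 had a log2 fold change of -0.09 and was not called.

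In the cholesterol list 9 of 27 rose and 2 fell, or 4 and 4 with library size alone. APOB, the scaffold of chylomicrons, fell from 426, 430 and 395 to 96.2, 100 and 96.8 CPM, whereas APOA1 had a log2 fold change of 0.71 and was not called. Respiratory complex I gave 4 rises and 4 falls in 37 and complexes II to V no rise and 3 falls in 39, and with library size alone 11 fell in each. Of 77 mitochondrial ribosomal proteins 16 fell and 4 rose, a share of falls of 20.8% that lies below the 23.4% of all genes, and with library size alone 35 fell. Of 13 mitochondrially encoded mRNAs only MT-ND1 was called (1823 to 1960 up to 3778 to 4182 CPM), and it was not called with library size alone (0.56), upper-quartile factors (0.97) or no count filter. All 13 were higher with CoCl2 than with OD, with a median log2 difference of 1.66. In the tricarboxylic acid cycle list 5 of 21 fell and 1 rose, or 6 and 0 with library size alone. That share of falls, 23.8%, was close to the 23.4% of all genes. PCK2 fell by 2.51 and IDH2 by 2.28, DLST rose by 1.48, and the citrate synthase gene CS had -0.07. With OD, PCK2 and IDH2 had means of 104 and 53.2 CPM against control ranges of 50.8 to 55.7 and 26.6 to 29.5 CPM.

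Translation and splicing genes changed little in number. Of 84 cytosolic ribosomal proteins 4 rose and 2 fell (1 and 4 with library size alone), with a median 0.56 above all genes, and the largest changes belonged to the scarcely expressed paralogues RPL3L and RPL39L. Among 39 initiation factors 6 rose and 4 fell (2 and 7 with library size alone), with EIF1 at 1.74 and EIF2B3 at -1.75. SR proteins and hnRNPs gave 2 rises and no fall in 35, but no rise and 3 falls with library size alone. HNRNPH1 had 531, 553 and 535 CPM in control cells and 1633, 1479 and 1476 CPM with CoCl2, and its call was among those lost under that scaling. Interferon-stimulated genes were mixed, with 6 rises, 5 falls and an uncalled log2 fold change of 0.66 for ISG15. Cytosolic aminoacyl-tRNA synthetases had no rise and 4 falls in 20, or 8 falls with library size alone, and fatty acid oxidation enzymes 1 rise and 5 falls in 21. The snoRNA host and nuclear long noncoding RNA list had 4 rises and 1 fall in 22. TGF-beta and BMP response genes had 5 rises and 7 falls in 23, and 424 ZNF zinc finger genes had 98 and 74, the last becoming 58 and 123 with library size alone.

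Calls also varied with the structure of the gene. Protein-coding genes were split into quintiles by the GC content of their canonical transcript, and over all of them 18.0% were higher and 22.9% lower. In the lowest quintile 18.9% were higher and 15.1% lower, in the highest quintile 14.5% and 33.6%. The median change relative to all genes went from 0.14 to -0.43 across the quintiles, while that of OD went from -0.10 to 0.17. Upregulated genes had a median GC content of 47.5%, downregulated genes 53.1% and uncalled genes 47.6%. Among 405 processed pseudogenes, 33.8% were higher and 7.65% lower, and their sequences copy those of expressed genes, so that part of their counts may belong to the parents. Among 773 long noncoding RNA genes 18.4% were higher and 36% lower. Small nucleolar RNA genes had 41.7% higher in 36, although such short RNAs lack poly(A) tails and lie inside the introns of host genes. The part of GC content or of read assignment in the changes of single genes was not tested.

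**Figure D4:**
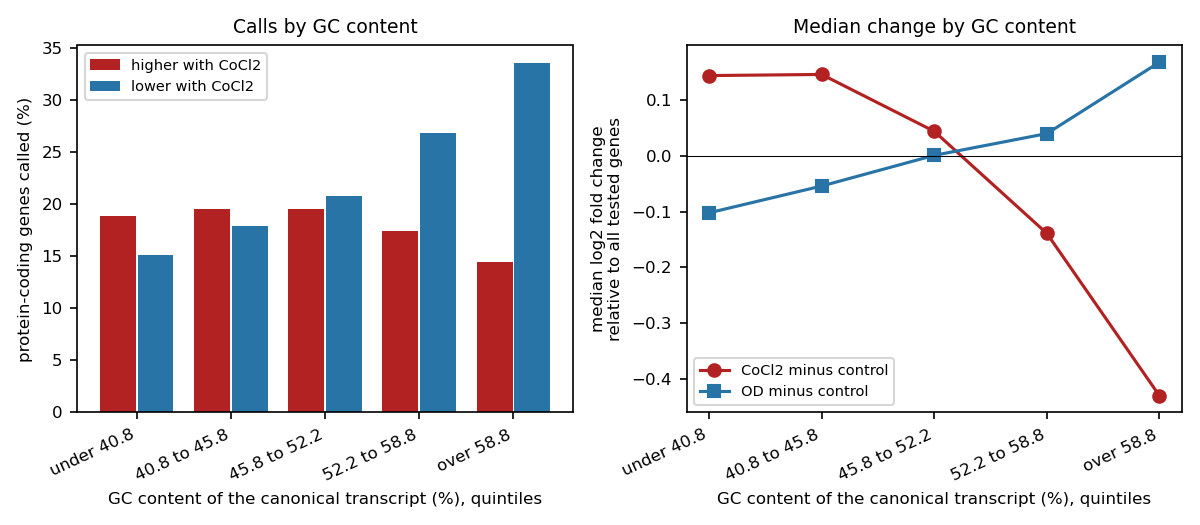
Protein-coding genes in quintiles of canonical transcript GC content. The left panel gives the percentage called higher and lower with CoCl2 against control (bars from 0), and the right panel the median log2 fold change relative to all tested genes for CoCl2 and for OD against control. The share lower rises from 15.1% to 33.6% from the lowest to the highest quintile, and the CoCl2 median goes from 0.14 to -0.43.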

How the data were processed

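RNA of 9 uCaco-2 cultures (3 control, 3 CoCl2, 3 OD) was measured as raw read counts per gene symbol, deposited by the authors in 1 table. Reads had been checked with FastQC 0.11.9, trimmed with cutadapt 2.10 and aligned with STAR 2.7.5b to GRCh38.p13 with GENCODE 34. The counting tool, its strand setting and its treatment of reads that map to several genes are not given in the sources used here, so values of near-identical genes and antisense pairs are uncertain. Groups and replicate numbers came from the sample labels, all 9 count columns were used and 0 were left out.

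Counts were fitted with edgeR 4.0.16 in R 4.3.3 (quasi-likelihood, robust, TMM factors, default expression filter) on all 9 libraries, which share 1 estimate of spread, and p-values were adjusted over all 15944 genes tested. Depth was 15998136 to 24209427 counts per library, and bounds against groups at or near 0 use 3 counts per library and cover counting error only. P-values measure the spread between 3 cultures of 1 line. The SE of a log2 fold change was its size divided by the square root of the F statistic of the same test. It therefore rests on the shared estimate of spread and not on the 3 libraries of each group alone. DESeq2 1.42.0, other scalings, filters, thresholds, a replicate block and the removal of each library were alternatives. On simulated counts of 14653 genes for this comparison, 195 of 200 changed genes (97.5%) were recovered, with 0 of the wrong sign and 2 false calls. Every other simulated gene kept its control level, and the 200 went up and down in equal number. The simulation therefore cannot show how accurate the calls are under the shift in composition of the real libraries.

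Genes were named by rule, outside the hypoxia list: the 12 largest rises and 12 largest falls (called, averaging 10 CPM or more over the 6 libraries, above 3 counts in each, groups not overlapping), the 8 largest gains and losses in CPM, the 5 most abundant called genes with at most 3 counts in every library of the other group, in each direction, and from each list its first 2 members and its largest rise and fall. Other named genes were chosen after their values were seen, and the members and lists were chosen with earlier results of these data known. Coordinates are those of GENCODE 44 on GRCh38, matched by symbol for 14325 tested genes (89.8%). Promoter sequences are from RefSeq (GRCh38.p14). Some genes that these rules name are not reported here.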

Additional observations from a re-analysis of the deposited data

How the results depend on the processing

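The number of called genes (6891) was 4767 to 8957 under 6 libraries alone, DESeq2, other normalisation factors, library size alone, other count filters and a test against the threshold itself, and it was 13260 (6441 higher, 6819 lower) with an adjusted p alone. Library size alone gave 1833 higher and 5839 lower, and 5557 of its calls were among the main ones. Leaving out each library gave 6908 to 7207 called, 3198 to 3363 higher and 3710 to 3844 lower. The replicate block gave 6901 called, 3174 higher and 3727 lower, 6868 of them shared, and 6568 against OD instead of 6580. Same-numbered samples had correlations of 0.00157, 0.0376 and 0.0209, so the numbers were not taken to pair the samples, and not every sample correlated best with its own number.

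Of 181 called genes among 227 named and tested, 0 changed sign in any alternative, 160 passed under each alternative in which they could be tested, other than the test against the threshold, where 174 did, and 178 passed without any 1 library. The exceptions were MT-RNR2 (0.99 without Control replicate 2), PRSS23 (-0.98 and -0.97 without CoCl2 replicate 1 or 2) and PSMA1 (0.98 and 0.99 without CoCl2 replicate 2 or Control replicate 1). Uncalled genes that passed elsewhere included HSPE1 without CoCl2 replicate 2 (-1.10) or Control replicate 3 (-1.06), with 6 libraries (-1.01), upper-quartile factors (-1.09), library size alone (-1.50) and both other count filters, HSPA9 with RLE factors (1.04) and without CoCl2 replicate 2 (1.01), TCP1 with RLE factors (1.01), and HSPD1, AARS1, CDK1 and CCNB1 with library size alone. Library size alone, which lowers every value alike, removed 20 calls and turned the sign of uncalled genes: WARS1 -0.32, FBL -0.30, EIF2S1 -0.25, EIF4E -0.45, HNRNPA1 -0.10, SDHB -0.39, CDX2 -0.33, HNF4A -0.09, CDH1 -0.22, KRT8 -0.16, KRT18 -0.24, ALB -0.36, SERPINA1 -0.18, ABCB1 -0.39, AXIN2 -0.32, PCNA -0.37, BCL2L1 -0.31, TRIB3 -0.0036 and EPCAM -0.14. EIF4E was also -0.05 with upper-quartile factors and -0.01 with no count filter, ATP5F1B was 0.0037 with RLE factors, and SI was 0.09 and 0.14 without CoCl2 replicate 1 or 3 and 0.01 without Control replicate 1. Of 53 list medians 19 changed sign in some alternative, among them those of DNAJ co-chaperones (-0.02 with DESeq2 on 9 libraries), ATF4-linked genes (-0.04 with DESeq2 on 6 libraries) and zinc genes. Genes under a few counts, the histone and metallothionein genes among them, are limited by depth.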
